A study of Homo sapiens with 134 samples.

Results

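Mock-irradiated HBEC3KT cells taken 24 h after mock irradiation were set against mock-irradiated cells of the same run taken 12 h after it, which shows how the control cells themselves changed between the last harvests. Every array labelled with a dose of 0 Gy and a time of 24 or 12 h was used, which is 21 of the 134 arrays of the series, 10 at 24 h and 11 at 12 h, and no array of irradiated cells entered the comparison. HBEC3KT (written HEBC3KT in the study's text) is 1 line of human bronchial epithelial cells kept dividing by introduced CDK4 and hTERT, the catalytic subunit of telomerase. Cells of both times carry both genes, were grown in keratinocyte serum-free medium with epidermal growth factor and bovine pituitary extract, and were treated as the controls of cultures exposed to iron ions (Fe), silicon ions (Si) or γ-rays (labelled x-ray). Their RNA was read on bead arrays of the type Illumina HumanWG-6 V2. A run is 1 radiation label in 1 biological replicate, written here as Fe_08A, Fe_08C, Fe_09C, Si_09A, Si_09B, Si_09C, x-ray_08C, x-ray_09A and x-ray_09C, and the 5 replicate names (08A, 08C, 09A, 09B and 09C) stand for campaigns. The label of a mock sample names the beam its sister cultures received, and the mock cells themselves received none. After averaging of technical replicates each run gave 1 sample at 24 h and 1 at 12 h, so that there are 9 pairs. Because the labels do not say whether runs of 1 campaign were separate cultures, p values measure the spread between these 9 runs. Time since handling, time in culture and cell density at harvest cannot be told apart in this design.

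Cultured airway epithelial cells divide until growth factors, space or nutrients become limiting, and the genes they express follow that state. E2F factors switch on the genes of DNA synthesis before S phase, heat shock factor keeps chaperones in supply, and ATF4 raises amino acid synthesis and transport when amino acids run short or the endoplasmic reticulum is stressed. The PER and CRY proteins close the feedback loop of the circadian clock, which handling or fresh medium can reset in cultured cells, and glucocorticoid hormone induces PER1 and other target genes through its receptor.

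At 24 h, compared with 12 h, the cells had lower levels of nearly every measured gene of the G1/S transition and of DNA replication and of many cytosolic chaperones, and higher levels of PER2, CRY2 and other clock genes, of glucocorticoid-inducible genes, ATF4 targets, glutathione and detoxification genes, genes of quiescent cells and basal epithelial adhesion genes. Of the 24350 probes tested, 1748 (7.18%) were higher and 1975 (8.11%) were lower at 24 h (limma on the 9 within-run differences, Benjamini-Hochberg adjusted p under 0.05). With 1 probe for each of 14161 genes, 1501 genes (10.6%) were higher and 1598 (11.3%) were lower, and these shares are the background for the gene counts below. Differences are given as log2 signal at 24 h minus log2 signal at 12 h, as a mean ± SD over the 9 runs, and levels are log2 signals. Most changes were small: the median size of a called difference was 0.32, and only 34 probes were called more than 2-fold higher and 30 more than 2-fold lower. In all 9 runs 1797 of the 3723 called probes (48.3%) moved the same way, and 3359 did so in at least 8 runs. The 24 h and 12 h levels of the 9 runs did not overlap for 31 probes (0.127% of those tested). The median difference over all genes was 0.00. Without the pairing of samples within runs, 305 probes were higher and 490 lower. With each array scaled to its median in place of quantile normalization the same test called 0 higher and 6 lower (2003 probes had an unadjusted p under 0.05 there). All 3723 probes kept their direction there, but they were chosen in the same 9 pairs, so that this is no separate support.

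The raw signals did not separate the times. The median raw signal of a sample was 50.4 to 89.1 (median 62.8) at 24 h and 45.8 to 92.9 (median 61.7) at 12 h, a mean log2 ratio of -0.0047 ± 0.353 (exact two-sided sign-flip permutation test over 9 runs, p = 0.949). The gap was widest in run Si_09C, with 50.41 at 24 h and 90.12 at 12 h, and it ran the other way in Si_09B (60.21 at 24 h and 45.77 at 12 h) and x-ray_09C (72.4 at 24 h and 56.67 at 12 h). Of the 10 listed basal epithelial markers, 7 were on the array and passed the filter on signal, and 6 of these had mean levels above 8. Mean levels were 13.29 at 24 h and 13.14 at 12 h for KRT5 and 12.83 at 24 h and 12.41 at 12 h for KRT14. ITGA6 was low at both times, with 6.55 at 24 h and 6.59 at 12 h. Summed signals of the basal markers were 19274 to 46857 at 24 h and 17053 to 30366 at 12 h. Markers of ciliated, secretory, fibroblast and endothelial cells lay between 5.85 and 6.73, where the filter stood at 6.2232, and CD14, with 8.24 at 24 h and 7.89 at 12 h, was the only leukocyte marker above 8. In bulk RNA, fewer cells in a given state and less RNA per cell cannot be told apart, which holds for every group of genes below.

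**Figure D1:**
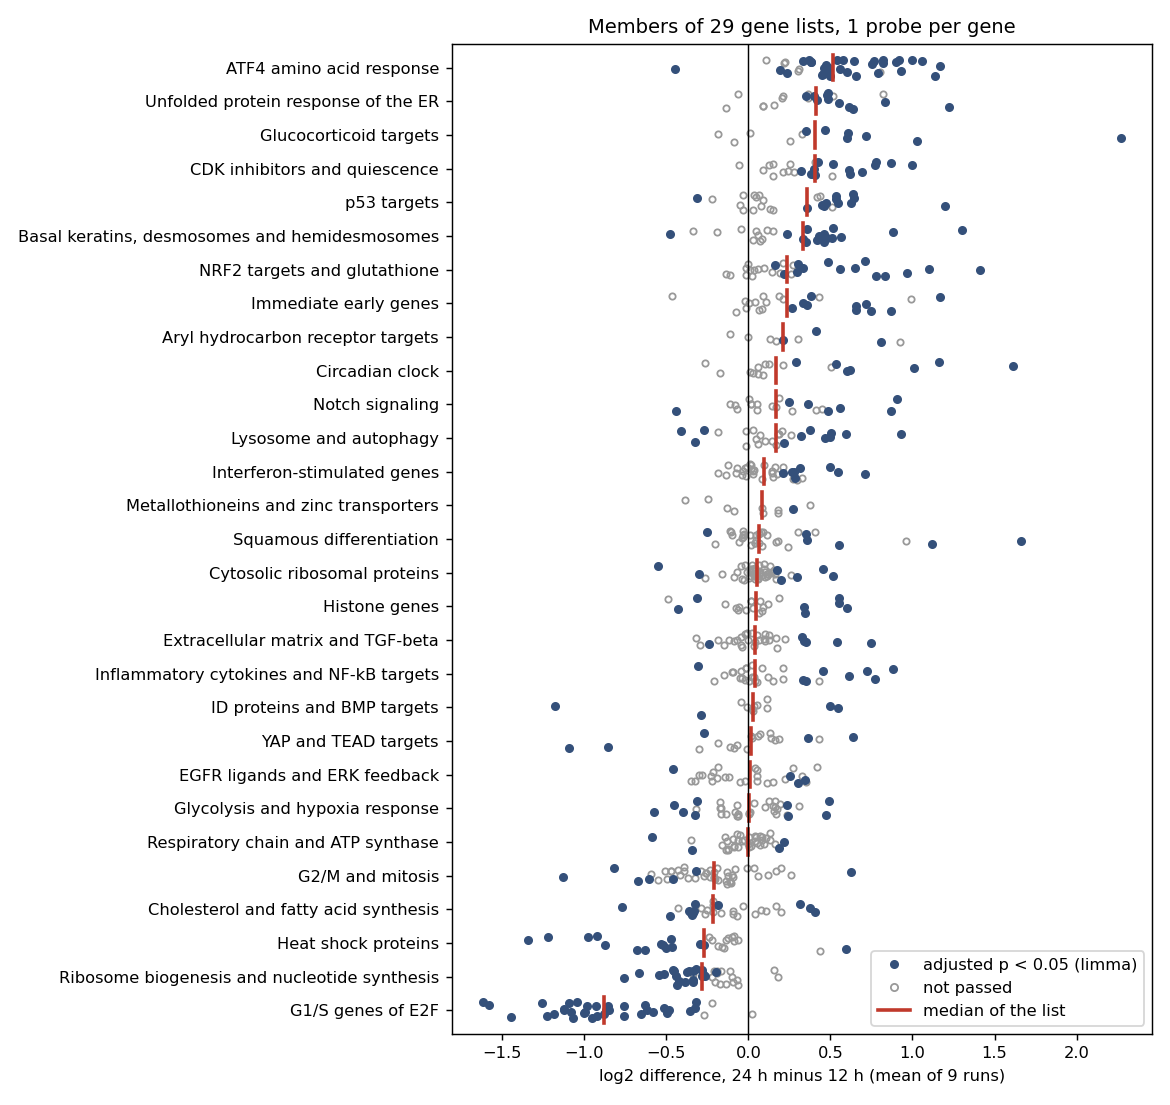
Difference of each tested gene (log2, 24 h minus 12 h, mean of 9 runs, horizontal axis) for gene lists of the report (rows); each filled point is a gene that passed an adjusted p of 0.05, each open point one that did not, and the vertical bar marks the list median. The G1/S genes, with a median of -0.88, lie almost wholly left of 0, and the ATF4 genes, with a median of 0.52, almost wholly right of it.

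The clock repressor PER2 had the smallest p of all probes tested. Its level was 9.12 to 9.97 (median 9.42) at 24 h and 7.36 to 8.33 (median 7.90) at 12 h, and the groups did not overlap. The difference was 1.61 ± 0.36, between 0.99 in x-ray_09C and 2.05 in Si_09A (adjusted p = 2.2e-05). Of 18 clock genes tested, 7 were called higher and 0 lower, and the list median was 0.17. The time of day of the harvests and of medium changes is not given in the sources used here, so that it cannot be told apart from the time after mock irradiation. Among the proline and acidic amino acid-rich activators that the clock drives, TEF stood at 7.42 to 8.97 (median 7.92) at 24 h and 6.59 to 7.77 (median 6.78) at 12 h, and DBP at 6.46 to 8.59 (median 7.26) at 24 h and 6.22 to 7.22 (median 6.37) at 12 h. Both rose in 9 of 9 runs, by 1.16 ± 0.62 (adjusted p = 0.00090) and 1.01 ± 0.71 (adjusted p = 0.0037). CRY2, which represses CLOCK and BMAL1 together with PER proteins, rose by 0.62 ± 0.35, again with no overlap, at 7.47 to 8.35 (24 h) and 6.90 to 7.45 (12 h). PER1 rose by 0.60 ± 0.47, NR1D2, a repressor of BMAL1, by 0.53 ± 0.29 and the kinase CSNK1D by 0.29 ± 0.25. The activating arm was not called: BMAL1 differed by -0.27 ± 0.42 (adjusted p = 0.17; lower in 8 of 9 runs), CLOCK by 0.09 ± 0.33 (adjusted p = 0.64) and NPAS2 by 0.06 ± 0.15 (adjusted p = 0.58). BMAL1 depended on single runs, since without Si_09B its difference was -0.38 (adjusted p = 0.014). CRY1 (-0.17 ± 0.46), NR1D1 (0.03 ± 0.10) and BHLHE40 (0.21 ± 0.28) were not called either, and PER3 did not pass the filter on signal. The NR1D1 probe lay at 6.20 to 6.48 at 24 h and 6.15 to 6.45 at 12 h, close to the filter of 6.2232. At so low a signal it cannot show whether NR1D1 changed or stayed constant.

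The promoter of TEF is shown because it carries the E-box that CLOCK and BMAL1 bind, the element of the loop that PER2 and CRY2 repress. The window, chr22:41367205-41367504 (GRCh38.p14, plus strand, RefSeq), runs from 250 bases before to 50 after the start, with the motif in capitals.
TEF: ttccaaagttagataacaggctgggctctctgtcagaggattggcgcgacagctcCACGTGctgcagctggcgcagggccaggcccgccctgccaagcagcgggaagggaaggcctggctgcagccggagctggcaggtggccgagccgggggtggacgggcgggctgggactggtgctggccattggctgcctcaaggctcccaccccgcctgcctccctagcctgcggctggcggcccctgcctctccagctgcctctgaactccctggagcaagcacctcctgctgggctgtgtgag
The E-box CACGTG (both strands; palindromic) was found in 3 of the 6 called clock genes with a window (NR1D2, PER1 and TEF), against 6 of the 17 clock genes and 11.8% of the 11146 tested genes with a window. A second window of TEF also holds it.

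**Figure D2:**
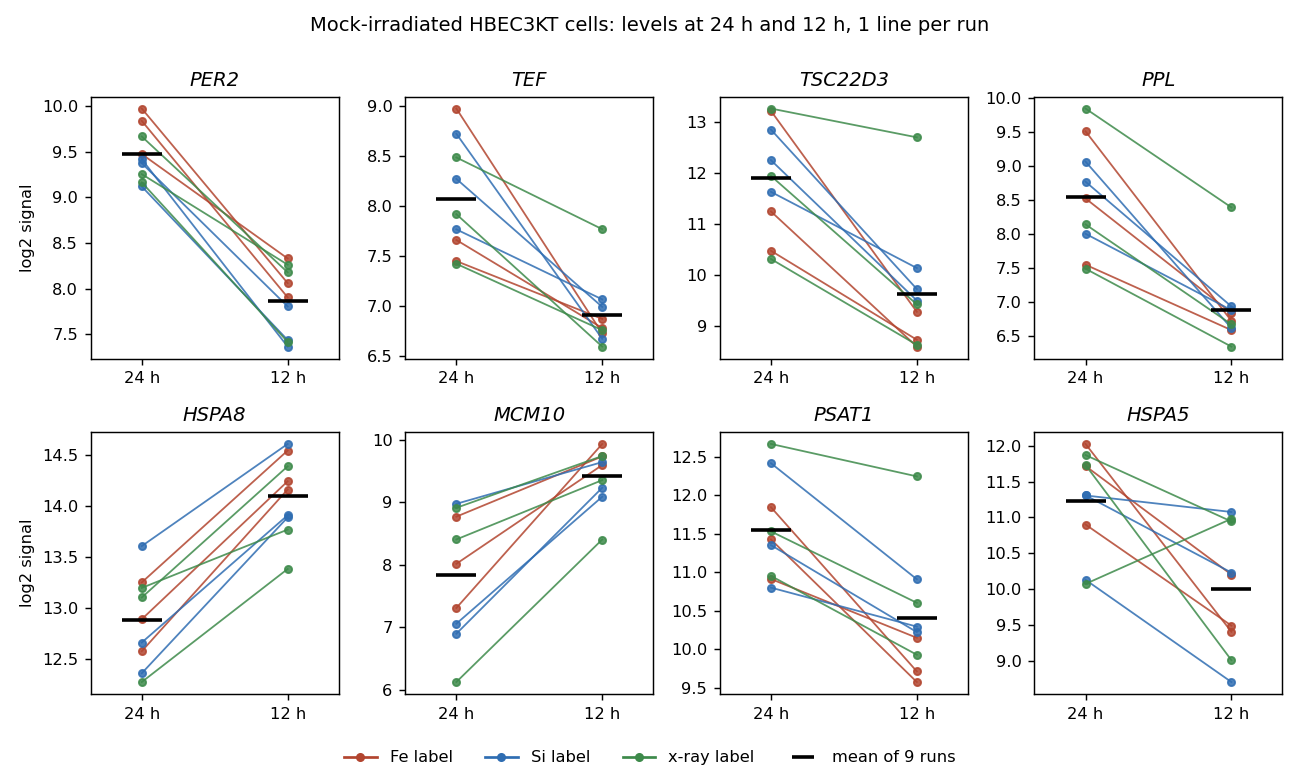
Log2 signal at 24 h (left) and 12 h (right) in each panel for genes named in the text; each line joins both samples of 1 run, so that a panel holds 9 lines. PER2 lies at 9.12 to 9.97 at 24 h and 7.36 to 8.33 at 12 h without overlap, while the levels of HSPA5 at the times overlap and 1 run, x-ray_09C, moves against the other 8.

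Genes inducible by glucocorticoid rose in the same samples. Of 12 tested, 7 were higher and 0 lower, with a median of 0.41, and the run medians were above 0 in all 9 runs. TSC22D3 (GILZ, a mediator of the hormone's anti-inflammatory action) had the largest mean difference of the list, 2.27 ± 1.00 (adjusted p = 0.00034). Its level was 10.32 to 13.26 (median 11.94) at 24 h and 8.61 to 12.70 (median 9.43) at 12 h, and the overlap came from x-ray_09C, the run with the highest 12 h level and the smallest difference (0.56). KLF9, a repressor induced by the hormone, rose by 1.03 ± 0.41, the phosphatase gene DUSP1 by 0.72 ± 0.46, glutamine synthetase (GLUL) by 0.61 ± 0.55 and the receptor's co-chaperone FKBP5 by 0.47 ± 0.32. PER1 belongs to this list as well as to the clock list. Other lists overlap too, with ATF3, for example, in both the ATF4 and the immediate early list, so that list counts are not independent.

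Genes of the G1/S transition fell in every run. Of 37 tested, 34 were lower and 0 higher, beside a background of 11.3% lower, and the list median was -0.88. Run medians lay between -1.53 (Fe_09C) and -0.34 (Si_09C). MCM10, which helps to activate the replication helicase, was at 6.13 to 8.97 (median 8.02) at 24 h and at 8.40 to 9.93 (median 9.59) at 12 h, a difference of -1.58 ± 0.75 (adjusted p = 0.00048). Lower levels were found in 9 of 9 runs, with the widest gap in Fe_09C (-2.62) and the narrowest in Si_09C (-0.67). The flap endonuclease FEN1 fell by 1.61 ± 0.90 on the log2 scale, DTL, which targets the licensing factor CDT1 for degradation, by 1.45 ± 0.87, the cyclin CCNE2 by 1.26 ± 0.67 and the ribonucleotide reductase subunit RRM2 by 1.23 ± 0.68. All 6 subunits of the MCM2 to MCM7 helicase fell, by 0.87 (MCM6) to 1.12 (MCM3), and so did the sliding clamp PCNA (-0.88 ± 0.51) and the factors E2F1 (-0.92 ± 0.60) and E2F2 (-1.09 ± 0.53). TK1, CCND1 and POLA1 were not called. Outside the list but named by the rule for the smallest p, the nuclease EXO1 differed by -1.25 ± 0.42, FAM111A, which acts at replication forks, by -0.93 ± 0.25 and SKP2, which marks the inhibitor p27 for degradation, by -0.57 ± 0.16. In the 5 runs with both times on 1 chip alone 32 genes were lower, and in the 4 runs with the times on different chips alone 10 were.

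DTL is shown because it was among the most reduced genes of this group and its promoter holds an E2F site, in capitals (chr1:212035498-212035797, GRCh38.p14, plus strand, RefSeq).
DTL: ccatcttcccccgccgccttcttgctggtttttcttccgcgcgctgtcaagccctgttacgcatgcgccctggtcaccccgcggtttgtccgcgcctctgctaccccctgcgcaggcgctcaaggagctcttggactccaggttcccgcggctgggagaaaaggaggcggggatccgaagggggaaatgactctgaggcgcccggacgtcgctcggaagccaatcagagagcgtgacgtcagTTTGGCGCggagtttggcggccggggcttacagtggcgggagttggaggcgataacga
The E2F sites TTTGGCGC, TTTCCCGC, TTTCGCGC or TTTGCCGC (both strands) were found in 21 of the 31 lower G1/S genes that have a window, against 6.04% of the 11146 tested genes. The list is made of genes known to be controlled by E2F, so that this share describes the list and not its change.

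Genes of G2 and mitosis did not follow evenly over the runs. Of 49 tested, 6 were lower, a share close to the background of 11.3%, and 1 was higher. The median was -0.21, with 42 members below 0 and 7 above 0. Run medians were below 0 in 6 runs and above 0 in 3, and extended from -1.89 in x-ray_09C through -0.68 in Si_09B to 0.48 in Fe_09C. The kinetochore gene ZWINT was at 6.81 to 9.43 (median 9.05) at 24 h and at 9.26 to 10.36 (median 9.89) at 12 h, a difference of -1.13 ± 0.64 (adjusted p = 0.0012), and SPC25, of the NDC80 complex, differed by -0.82 ± 0.69. BUB3, of the spindle checkpoint, fell by 0.32 ± 0.16, with a second probe in the opposite direction that was not called. The phosphatase CDC25B, which activates CDK1, was the only member called higher (0.63 ± 0.33, higher in 9 of 9 runs), and 2 members were called higher without x-ray_09C. Run x-ray_09C stood apart for the mitotic motor KIF11, with -2.30 against -1.11 to 0.02 in the other 8 runs. The count was not stable: 3 genes were lower without Si_09A or without Si_09B, and 18 were lower when the runs of each of the 5 campaigns were averaged first.

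In the list of CDK inhibitors and genes of quiescent cells, 13 of 25 tested were higher and 0 lower, the median was 0.40, and all 9 run medians were above 0 (0.16 to 0.94). CDKN2B (p15), which inhibits CDK4 and CDK6, was at 7.63 to 8.86 (median 8.06) at 24 h and at 7.18 to 8.20 (median 7.37) at 12 h, a difference of 0.69 ± 0.46 (adjusted p = 0.0031). It was the only CDK inhibitor called of the 6 tested by the gene's main probe: CDKN1A, CDKN1B, CDKN1C, CDKN2A and CDKN2D differed by 0.12 to 0.42. TXNIP, a brake on glucose uptake, differed by 1.00 ± 0.71, PDCD4, which restrains translation initiation, by 0.78 ± 0.42, YPEL5 by 0.77 ± 0.42, KLF4 by 0.62 ± 0.39 and BTG1 by 0.51 ± 0.33. FOXO3, FOXO4 and RBL2, transcription regulators of resting cells, rose by 0.32 to 0.42. MNT, which competes with MYC for MAX, was 8.71 to 9.36 (median 9.06) at 24 h and 8.17 to 8.61 (median 8.38) at 12 h with no overlap, a difference of 0.66 ± 0.18.

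Targets of p53 moved in part. Of 27 tested, 11 were called higher and 1 lower, with a median of 0.36, and all 9 run medians were above 0. GDF15, a secreted stress cytokine that ATF4 induces as well, rose by 1.20 ± 0.68, at 8.20 to 10.36 (median 9.45) at 24 h and at 7.56 to 9.65 (median 7.92) at 12 h. TRIM22 rose by 0.55 ± 0.37 and CCNG1 by 0.45 ± 0.31, and TIGAR, which lowers glycolytic flux, fell by 0.31 ± 0.23. CDKN1A (p21), the best known of these targets, gave different calls on its probes. The probe used for the list was not called, at 12.95 to 14.44 (median 13.28) at 24 h and 12.88 to 14.27 (median 12.94) at 12 h, a difference of 0.42 ± 0.51 (adjusted p = 0.061; higher in 8 of 9 runs). Without x-ray_08C that probe had an adjusted p of 0.026. The other CDKN1A probe was called higher with all 9 runs (0.28 ± 0.28; adjusted p = 0.034).

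**Figure D3:**
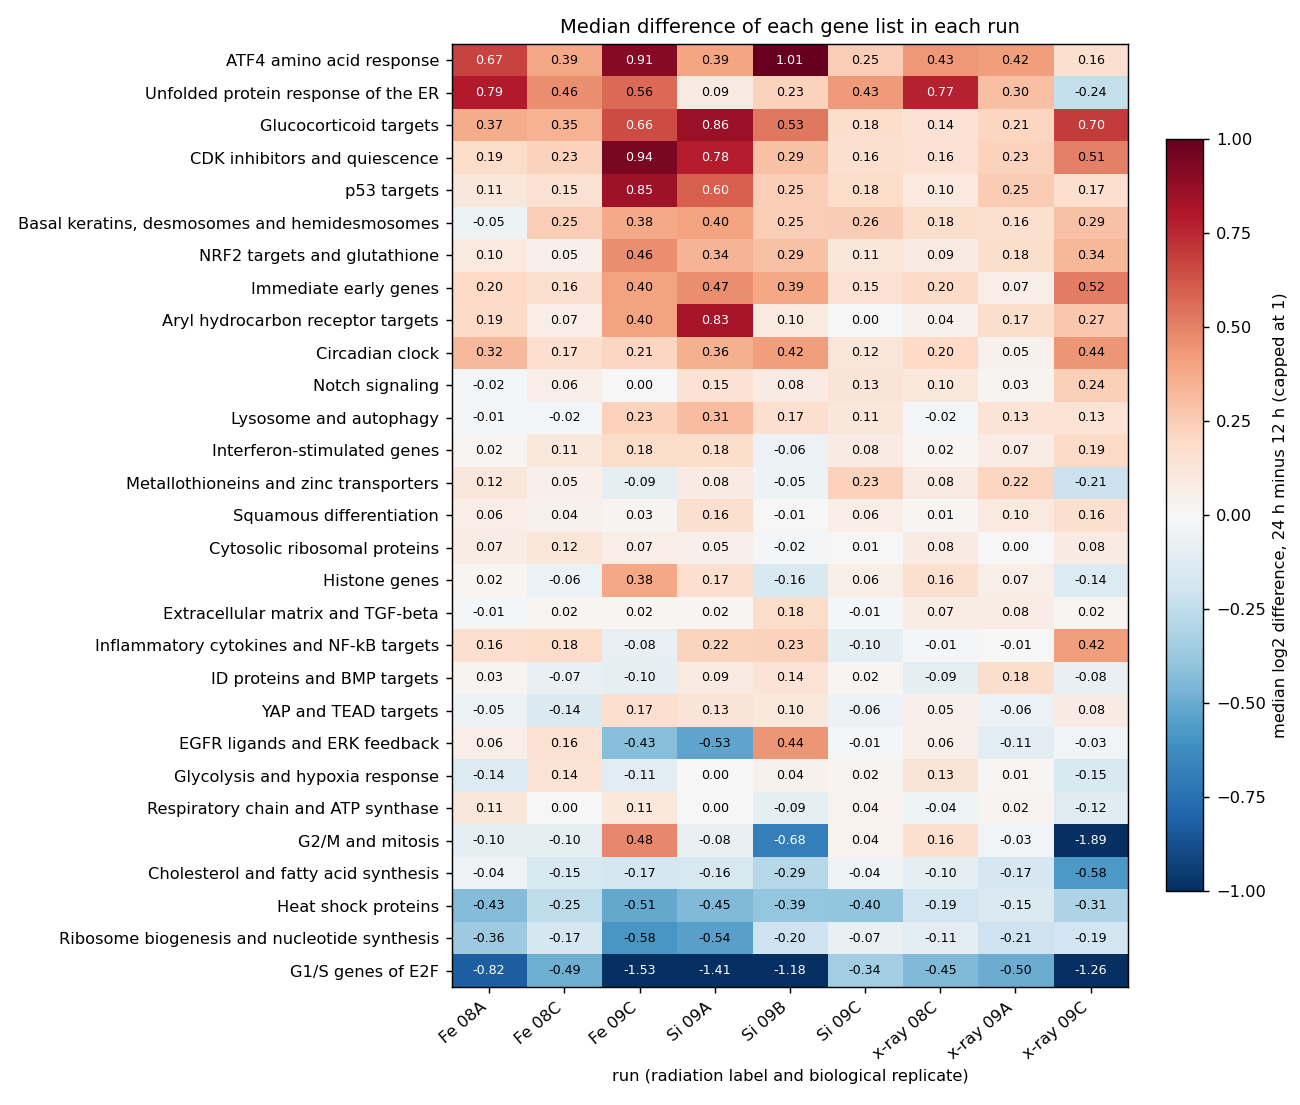
Median difference (log2, 24 h minus 12 h) of each gene list (rows) in each of the 9 runs (columns), as colour (capped at 1) and printed value. The G1/S row is below 0 in all 9 runs, from -1.53 to -0.34, and the G2/M row reaches from -1.89 in x-ray_09C to 0.48 in Fe_09C.

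Cytosolic chaperones fell. Of 27 heat shock genes tested, 14 were lower and 1 higher, the median was -0.27, and the run medians lay between -0.51 and -0.15. HSPA8, the constitutive HSP70 that folds new proteins, was at 12.27 to 13.61 (median 12.89) at 24 h and at 13.38 to 14.61 (median 14.16) at 12 h, and the groups overlapped between 13.38 and 13.61. It differed by -1.22 ± 0.30 (adjusted p = 4.4e-05), between -1.59 in Fe_09C and -0.57 in x-ray_09A, and it was among the few genes called under median scaling too. The inducible HSP70 genes HSPA1A (-1.34 ± 0.62) and HSPA1B (-0.93 ± 0.54) are near-identical copies whose probes may share transcripts. HSPH1, an exchange factor of HSP70, fell by 0.98 ± 0.38, its partner DNAJA1 by 0.87 ± 0.35, CHORDC1, a co-chaperone of HSP90, by 0.68 ± 0.14, HSP90AA1 by 0.63 ± 0.44 and FKBP4 by 0.53 ± 0.27. Subunits of the chaperonin that folds actin and tubulin (CCT2, CCT3 and CCT5) fell by 0.30 to 0.52. HSPB1, a small heat shock protein that binds actin, was the only member called higher, with 0.60 ± 0.43 and higher levels in 9 of 9 runs.

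HSPA8 is shown because it had the smallest p of this list and its promoter holds 2 heat shock elements, in capitals (chr11:123062087-123062386, GRCh38.p14, minus strand, RefSeq).
HSPA8: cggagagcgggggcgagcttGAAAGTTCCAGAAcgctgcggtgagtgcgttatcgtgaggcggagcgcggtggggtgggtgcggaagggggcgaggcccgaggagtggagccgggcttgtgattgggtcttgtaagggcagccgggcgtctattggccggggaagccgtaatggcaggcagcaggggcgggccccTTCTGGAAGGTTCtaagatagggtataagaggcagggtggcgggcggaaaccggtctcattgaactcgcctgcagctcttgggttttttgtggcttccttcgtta
The element, searched on both strands as GAA, TTC and GAA with 2 bases of any kind between each, was found in 4 of the 13 lower heat shock genes with a window (CHORDC1, DNAJA1, HSP90AA1 and HSPA8), against 55 of the 11146 tested genes. Of all 24 heat shock genes with a window 7 hold it, so that the share describes the list and not its change.

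Genes of ribosome production fell as well. Of 39 tested, 22 were lower and 0 higher, with a median of -0.28, and the run medians were below 0 in all 9 runs (-0.58 to -0.07). CTPS1, which makes CTP, was at 8.78 to 10.11 (median 9.75) at 24 h and at 9.97 to 10.76 (median 10.30) at 12 h, a difference of -0.76 ± 0.39 (adjusted p = 0.00091). The spermidine synthase SRM differed by -0.67 ± 0.37, the snoRNP protein NOP56 by -0.54 ± 0.35, the rRNA methyltransferase NOP2 by -0.52 ± 0.42 and nucleolin (NCL) by -0.44 ± 0.38. The genes of the ribosomal proteins themselves did not move with them: of 50 tested, 5 were higher and 2 lower (median 0.05), in both directions under the background, and 3 were higher without any 1 of Fe_08A, Fe_09C, Si_09A, x-ray_09A and x-ray_09C. Without any 1 of Fe_09C, Si_09A, Si_09B, x-ray_08C and x-ray_09C 1 was lower, and averaging the runs of each of the 5 campaigns before the test (campaign means) gave 3 higher and 0 lower. These genes have many processed copies.

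The ATF4 list held more higher genes than any other of the 29 lists. Of 38 tested, 31 were higher and 1 lower, beside a background of 10.6% higher, and the median was 0.52. All 9 run medians were above 0, between 0.16 (x-ray_09C) and 1.01 (Si_09B). PSAT1, of serine synthesis, was at 10.80 to 12.67 (median 11.43) at 24 h and at 9.58 to 12.25 (median 10.23) at 12 h, a difference of 1.14 ± 0.59 (adjusted p = 0.00075). Its highest level at both times was in run x-ray_09C, and the groups overlapped. Enzymes of amino acid and one-carbon metabolism rose, among them ASNS (0.93 ± 0.69), MTHFD2 (0.82 ± 0.50), ALDH1L2 (0.75 ± 0.49), PHGDH (0.49 ± 0.32) and PSPH (0.49 ± 0.51). The amino acid transporters SLC6A9 (0.90 ± 0.38), SLC1A5 (0.79 ± 0.42) and SLC7A11 (0.56 ± 0.50) did so too. Of the tRNA synthetases, AARS1 had the largest rise (0.82 ± 0.45) and SARS1, EPRS1, GARS1, YARS1, MARS1, CARS1 and WARS1 rose by 0.38 to 0.66. The stress factors ATF3 (1.17 ± 0.97), DDIT3 (CHOP, 1.06 ± 0.72) and TRIB3 (0.92 ± 0.68), ATF4 mRNA itself (0.54 ± 0.39) and its partner CEBPG (0.60 ± 0.32) were higher. ATF5 was the only member to fall (-0.45 ± 0.36; lower in 8 of 9 runs). The C/EBP-ATF element TGATGNAA (both strands) was in the promoter window of 11 of the 26 higher genes that have one, against 13 of the 31 genes of the list and 3.18% of the 11146 tested genes.

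Genes of the unfolded protein response in the endoplasmic reticulum rose less evenly over the runs. Of 22 tested, 11 were higher and 0 lower, with a median of 0.41. The run medians were above 0 in 8 runs, up to 0.79 in Fe_08A and 0.77 in x-ray_08C, and were -0.24 in x-ray_09C. HSPA5 (BiP), the chaperone of that compartment, was at 10.07 to 12.02 (median 11.31) at 24 h and at 8.71 to 11.08 (median 10.20) at 12 h. Its difference was 1.22 ± 1.12 (adjusted p = 0.015), with 2.72 in x-ray_08C, 2.62 in Fe_08A and -0.91 in x-ray_09C. ERN1, a sensor of misfolded protein, differed by 0.83 ± 0.52, its target XBP1 by 0.64 ± 0.39, and calreticulin (CALR) by 0.48 ± 0.42. The count depended on single runs: 6 genes were higher without Fe_08A and 7 without Fe_08C, without Fe_09C or without x-ray_08C.

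HSPA5 is shown because its promoter holds the element of this response, in capitals (chr9:125241294-125241593, GRCh38.p14, minus strand, RefSeq).
HSPA5: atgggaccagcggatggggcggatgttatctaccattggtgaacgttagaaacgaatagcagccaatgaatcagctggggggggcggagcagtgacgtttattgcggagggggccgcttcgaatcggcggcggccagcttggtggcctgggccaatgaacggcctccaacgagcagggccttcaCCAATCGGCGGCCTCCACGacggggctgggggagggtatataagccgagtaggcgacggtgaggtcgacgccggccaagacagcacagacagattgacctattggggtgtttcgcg
The element, searched on both strands as CCAAT and CCACG with 9 bases of any kind between them, was in the window of 5 of the 11 higher genes (CALR, CRELD2, HSP90B1, HSPA5 and XBP1), against 7 of the 22 genes of the list and 0.144% of the 11146 tested genes. As for the other motifs, a match describes the letters in this window and not a bound site.

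Genes of glutathione synthesis and detoxification, many of them targets of NRF2, rose. Of 30 tested, 14 were higher and 0 lower, with a median of 0.24 and all 9 run medians above 0. GCLC, the catalytic subunit of the first step of glutathione synthesis, was at 9.47 to 11.04 (median 10.48) at 24 h and at 8.67 to 10.16 (median 9.21) at 12 h, a difference of 0.97 ± 0.36 (adjusted p = 0.00022; higher in 9 of 9 runs). The aldo-keto reductases AKR1B10 (1.41 ± 0.94) and AKR1C3 (1.10 ± 0.57), OSGIN1 (0.83 ± 0.41), PIR (0.78 ± 0.49), the glutathione transferase GSTA4 (0.71 ± 0.39) and the glutathione peroxidase GPX2 (0.65 ± 0.30) rose in 9 of 9 runs each. AKR1B10 and AKR1C3 belong to families of similar sequence, and their probes may share transcripts. The letters TGACNNNGC of the antioxidant response element were in the window of 4 of the 11 higher genes with one, against 11 of the 25 genes of the list and 19.1% of the 11146 tested genes. Of 9 targets of the aryl hydrocarbon receptor tested, 3 were higher and 0 lower, with CYP1B1 at 6.20 to 8.52 (median 7.09) at 24 h and at 5.89 to 7.31 (median 6.05) at 12 h.

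Immediate early genes, which growth factors and stress induce within the hour, were higher at 24 h in part. Of 24 tested, 10 were higher and 0 lower, with a median of 0.24. FOS was at 11.92 to 13.78 (median 12.27) at 24 h and at 11.28 to 12.70 (median 11.70) at 12 h, a difference of 0.75 ± 0.33 (adjusted p = 0.00043). ZFP36, which destabilizes cytokine mRNAs, rose by 0.87 ± 0.46, EGR1 by 0.66 ± 0.35 and JUND by 0.65 ± 0.34, each in 9 of 9 runs. FOSL1 was not called (-0.46 ± 0.69; adjusted p = 0.12). EGFR ligands and ERK feedback genes had 3 higher and 1 lower of 28, 1 higher without any 1 of Fe_09C, Si_09B and x-ray_09C, and the sign of their median (0.01) turned under median scaling (-0.03). SPRY1, an inhibitor of this pathway, fell by 0.46 ± 0.41. Among 20 targets of YAP and TEAD, 2 were higher (1 without any 1 of Fe_08A, Fe_09C, Si_09A, Si_09B, x-ray_08C and x-ray_09A) and 3 lower, the largest being IGFBP3 (-1.09 ± 0.60) and the coagulation initiator F3 (-0.86 ± 0.64), both lower in 9 of 9 runs.

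Genes of basal cells and of adhesion between epithelial cells rose. Of 25 basal keratin, desmosome and hemidesmosome genes, 14 were higher and 1 lower, with a median of 0.33, and 9 were higher without Si_09A and 7 with campaign means. The basal keratin KRT15 was at a mean of 9.86 at 24 h and 8.55 at 12 h, a difference of 1.30 ± 0.99 (adjusted p = 0.0054). DSG3, a desmosomal cadherin, was at 9.53 to 11.12 (median 10.08) at 24 h and at 9.03 to 10.22 (median 9.28) at 12 h, a difference of 0.88 ± 0.47. P-cadherin (CDH3) rose by 0.56 ± 0.32, the linker PLEC by 0.51 ± 0.33, plakoglobin (JUP) by 0.43 ± 0.30 and the integrin ITGB4 by 0.35 ± 0.22. KRT7, a keratin of simple epithelia, fell by 0.47 ± 0.32. Genes of squamous differentiation differed little as a group, with 5 higher and 1 lower of 35 (3 higher without Si_09A or with campaign means). Their median was 0.06, with 24 members above 0 and 11 below, and the run medians were above 0 in 8 runs, up to 0.16. The cornified envelope gene PPL nevertheless had a difference of 1.66 ± 0.62, with 7.49 to 9.84 (median 8.52) at 24 h and 6.34 to 8.39 (median 6.72) at 12 h, and KRT16, a keratin of activated epithelium, rose by 1.12 ± 0.89.

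In lipid metabolism, 9 of 29 genes of cholesterol and fatty acid synthesis were lower and 3 higher, with a median of -0.21 and all 9 run medians below 0. HMGCS1, an early enzyme of the cholesterol pathway, differed by -0.77 ± 0.71, the elongase ELOVL6 by -0.48 ± 0.23 and DHCR7 by -0.34 ± 0.17. The 3 higher members are a share close to the background of 10.6% higher, so that their count is no result about the list. They were SREBF1 (0.37 ± 0.39) and SREBF2 (0.31 ± 0.34), the factors that switch the pathway on, and ACSS2 (0.41 ± 0.27). Without any 1 of Fe_09C, Si_09A, Si_09B and x-ray_09A, or with campaign means, only 1 was called higher. ABCG1, which exports cholesterol, was at 8.77 to 10.88 (median 10.08) at 24 h and at 7.89 to 9.57 (median 9.36) at 12 h, a difference of 0.96 ± 0.34, and the fatty acid transporter SLC27A1 differed by 0.74 ± 0.25. Among lysosome and autophagy genes 8 of 25 were higher and 3 lower (1 lower without Si_09A or without Si_09B), led by GABARAPL1 (0.93 ± 0.53), an autophagosome protein, and the initiating kinase ULK1 (0.50 ± 0.42). Glycolysis and hypoxia genes had 4 higher (2 without Fe_09C) and 5 lower (3 without Si_09A, 2 without Si_09B) of 35. These shares are close to the background of 10.6% higher and 11.3% lower, and the median was 0.00. Of 38 respiratory chain genes 2 were higher and 2 lower, both under the background, with cytochrome c (CYCS, -0.59 ± 0.24) among the lower. Of the respiratory chain genes, 0 were higher without any 1 of Fe_09C, Si_09A and Si_09B, and 1 without any 1 of Fe_08A, Fe_08C and x-ray_09A.

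The remaining groups had smaller counts. Of 35 interferon-stimulated genes 8 were higher and 0 lower (5 higher without any 1 of Fe_08A, Fe_08C and Si_09A), with IRF9, a subunit of the interferon-activated factor, at 0.71 ± 0.35. Of 30 inflammatory genes 7 were higher and 1 lower: the antagonist IL1RN rose by 0.72 ± 0.40 and the antiprotease SERPINA3 by 0.77 ± 0.45, while IL1B fell by 0.31 ± 0.23. Of 21 Notch genes 6 were higher (3 with campaign means) and 1 lower, with the receptors NOTCH1 (0.90 ± 0.87) and NOTCH2 (0.56 ± 0.35) and the target HES1 (0.87 ± 0.74) higher and HES4 (-0.44 ± 0.36) lower. Follistatin (FST), a binder of activin, had the largest difference of the ID and BMP list, -1.18 ± 0.43, and its other probe gave -1.19 ± 0.42. Of 32 matrix genes 5 were higher and 1 lower (3 higher without any 1 of Fe_09C, Si_09A, Si_09B and x-ray_09A, or with campaign means), among them MMP14, whose levels did not overlap (7.28 to 7.74 at 24 h and 6.93 to 7.26 at 12 h), and the anchoring collagen COL7A1 (0.75 ± 0.52). Of 22 histone genes 5 were higher and 2 lower (2 higher without Si_09A and 3 without x-ray_09A; 1 lower without any 1 of Fe_08A, Fe_09C, Si_09A, Si_09B and x-ray_09C), which have near-identical copies, and of 10 metallothionein and zinc transporter genes 1 was higher and 0 lower (3 higher without x-ray_09C).

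The genes with the smallest p outside these lists were a mixed group. DHRS9, a retinol dehydrogenase, rose by 1.07 ± 0.30, with 7.67 to 9.53 (median 8.88) at 24 h and 6.74 to 8.74 (median 7.69) at 12 h. The metalloproteinase MMP28 differed by 1.41 ± 0.48 and the cyclin CCNA1 by 1.59 ± 0.60. CCNA1 did not overlap between the times, at 7.39 to 9.91 (median 8.34) at 24 h and 6.51 to 7.31 (median 6.90) at 12 h. PCED1B (0.85 ± 0.19), TMC6 (0.69 ± 0.17), C14orf93 (0.71 ± 0.19), ZMIZ1 (0.67 ± 0.20), SH3TC1 (0.70 ± 0.20), CRYL1 (0.55 ± 0.15) and LTBP4 (0.55 ± 0.17) varied less between runs. In the other direction, DDAH1, which degrades an inhibitor of nitric oxide synthase, did not overlap (6.84 to 7.58 at 24 h and 7.68 to 8.22 at 12 h; difference -0.67 ± 0.18). The mitotic kinase MASTL (-0.73 ± 0.20), the nicotinic receptor subunit CHRNA5 (-0.68 ± 0.20), the recombination protein RAD54B (-0.60 ± 0.17), CCDC138 (-0.61 ± 0.14), TMEM70 (-0.74 ± 0.23), TMEM97 (-0.61 ± 0.18), TMEM106C (-0.46 ± 0.10) and CSTF1 (-0.50 ± 0.13) were lower in 9 of 9 runs. DHRS9, SLC6A9, ERN1 and ULK1 each have another probe in the opposite direction that was not called, and so does ABCG1 (-0.12 and -0.0007). Some further probes kept the sign but were smaller and not called, among them those of EXO1 (-0.07), IL1RN (0.01), ITGB4 (0.05) and GLUL (0.12 and 0.18). CSTF1 has further probes at -0.08 and -0.14, not called, and at -0.29, called lower.

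The runs did not move alike in size. Over the 24350 probes, the differences of any pair of runs correlated with a median coefficient of 0.36 (0.10 to 0.80, 36 pairs), where runs of a campaign may share cultures and probes are not independent. Against the mean of the other runs the coefficient was lowest in Si_09C and x-ray_08C (0.35 each) and highest in Fe_09C and Si_09A (0.75 each). Without Si_09C and x-ray_08C, 1841 probes were higher and 2103 lower. In a test of the 3 radiation labels against each other, 0 of 24350 probes (0%) were called for a difference between 24 h and 12 h that varied with the label (limma F test; smallest adjusted p = 1; 388 had an unadjusted p under 0.05). Each label has only 3 runs, from different campaigns, so that this test could miss differences between labels and does not show that they moved alike. Both times of a run shared a chip in 5 runs, which alone gave 883 probes higher and 1218 lower, and lay on different chips in 4, which alone gave 98 and 113, with 0 genes of the unfolded protein response and 0 of the basal keratin and desmosome list among those higher.

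The mock cells of the same runs taken earlier place 12 h among 4 times. An F test over 1, 4, 12 and 24 h called 6158 probes (25.3%), among them 3254 of the 3723 that differed between 24 h and 12 h. All values here are set against the same 12 h samples, so that they share them. The mean of the G1/S genes, relative to 12 h, was -0.47 ± 0.60 at 1 h, -0.12 ± 0.31 at 4 h and -0.84 ± 0.40 at 24 h. It was highest at 12 h, with the gaps to 1 h and to 4 h within the SD. Heat shock genes had -0.38 at 1 h, -0.17 at 4 h and -0.38 ± 0.12 at 24 h and were likewise highest at 12 h. The ATF4 genes had 0.37 ± 0.51 at 1 h, 0.11 ± 0.30 at 4 h and 0.56 ± 0.28 at 24 h. The unfolded protein response had 0.36 ± 0.36 at 1 h, 0.04 ± 0.25 at 4 h and 0.41 ± 0.34 at 24 h. Both had their lowest mean at 12 h, again with the gap to 4 h within the SD. The gap to 1 h was within the SD for the ATF4 genes and about as large as it for the unfolded protein response. Glucocorticoid targets had 0.31 at 1 h, -0.12 at 4 h and 0.53 at 24 h. PER2 was lowest at 12 h, with 1.52 above it at 1 h, 1.03 at 4 h and 1.61 at 24 h, and FST had 0.13 above 12 h at 1 h and 1.39 at 4 h on the probe that gave -1.19 at 24 h.

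**Figure D4:**
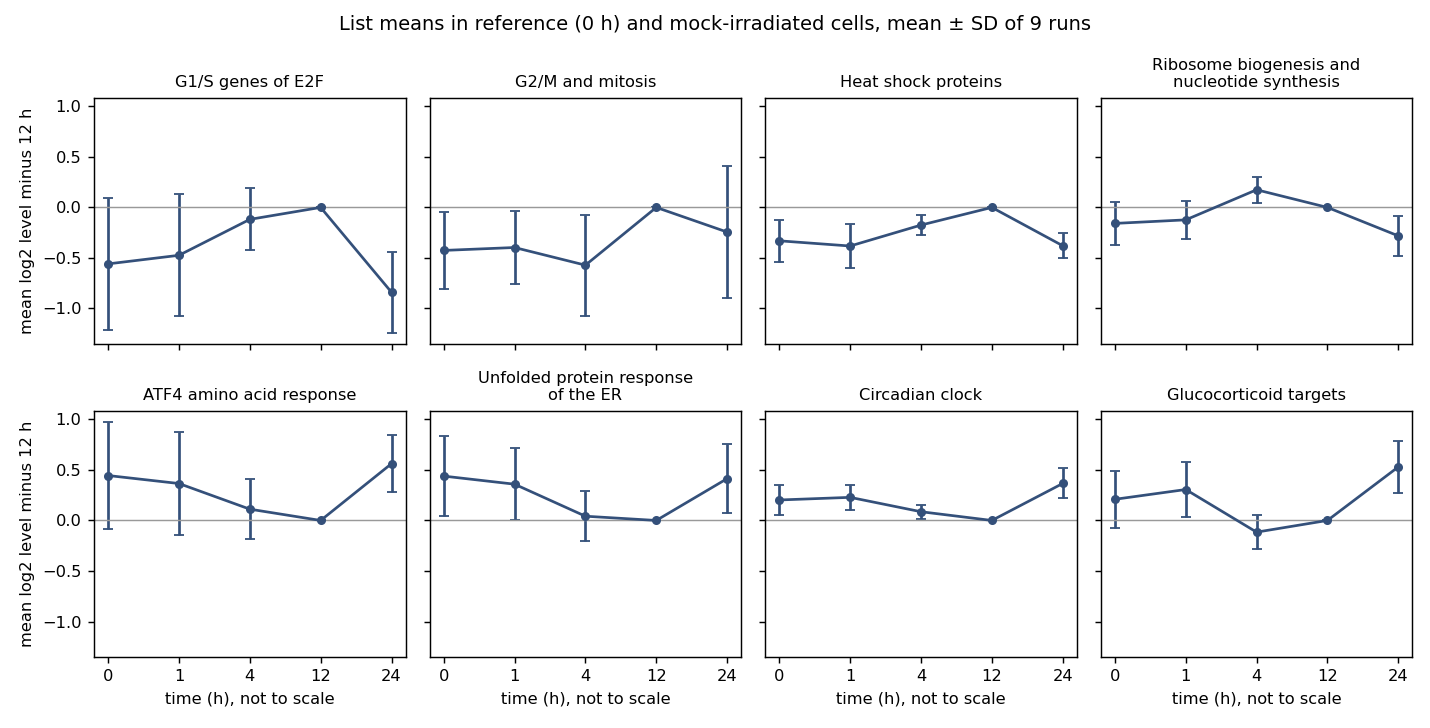
Mean log2 difference from the 12 h sample of the same run (vertical axis) for 8 gene lists in reference cells (0 h) and in mock cells at 1, 4, 12 and 24 h; points are means and bars SDs over 9 runs, and 12 h is 0 by construction. The G1/S genes are at -0.12 at 4 h and -0.84 at 24 h, and the ATF4 genes at 0.11 at 4 h and 0.56 at 24 h.

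The irradiated cells of the same runs passed through the same interval, after 0.5 and 1 Gy of Fe or Si ions and after 1 and 3 Gy in the x-ray label. A dose was used where the run had it at both times, which took 38 of the 41 irradiated arrays, and in Fe_08A this was 1 Gy alone. There 1222 probes were higher and 1545 lower at 24 h than at 12 h. Of the 3723 probes called in mock cells, 3696 (99.3%) had the same sign in irradiated cells, against 67.1% of the probes not called. Over the called probes the median ratio of the irradiated to the mock difference was 0.821. Choosing probes by their mock difference lowers this ratio by itself, so that it does not show a smaller change in irradiated cells. The same holds for single genes named for their mock results. A test of the difference between irradiated and mock cells called 0 of 24350 probes (0%; limma, smallest adjusted p = 0.446; 1568 with an unadjusted p under 0.05). PER2 differed by 1.38 ± 0.51 in irradiated and 1.61 ± 0.36 in mock cells, HSPA8 by -1.08 ± 0.44 in irradiated and -1.22 ± 0.30 in mock cells, and the median of the G1/S genes was -0.77 in irradiated and -0.88 in mock cells. The basal keratin and desmosome genes had medians of 0.11 in irradiated and 0.33 in mock cells, a difference that was not tested for the list.

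**Figure D5:**
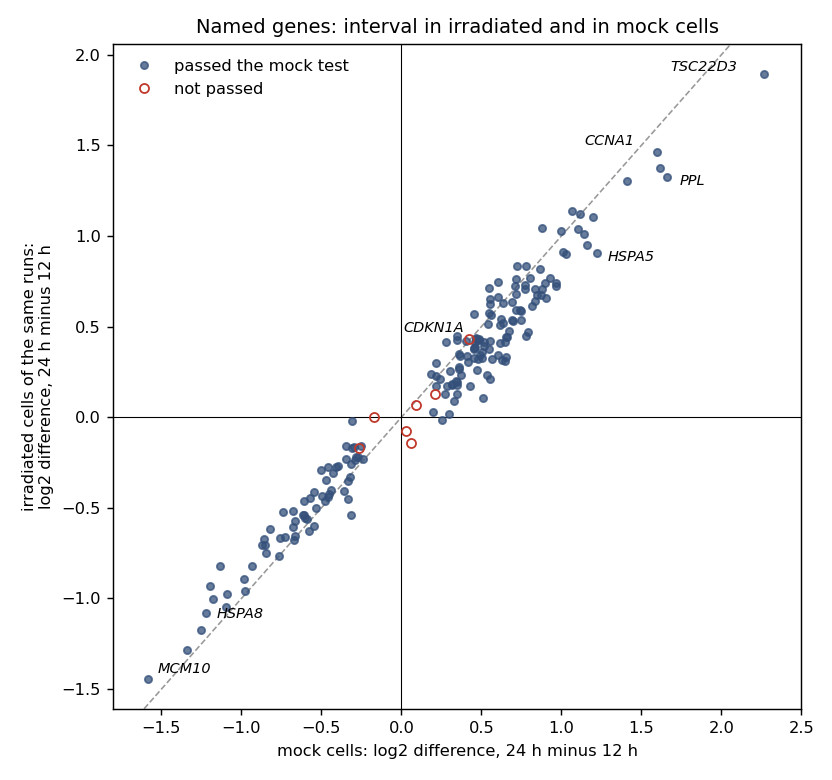
Difference (log2, 24 h minus 12 h, mean of 9 runs) of each of the 188 named genes in irradiated cells (vertical axis) against mock cells (horizontal axis); filled points passed the test in mock cells, open points did not, and the dashed line marks equal differences. TSC22D3 lies at 1.89 in irradiated and 2.27 in mock cells, and MCM10 at -1.44 in irradiated and -1.58 in mock cells. Most of these genes were named for passing the mock test, which by itself favours larger mock than irradiated differences.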

How the data were processed

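Of the 134 Illumina arrays, 21 entered the main comparison. The others entered the normalization and the filter, and many of them the comparisons with other times and with irradiated cells. The authors read the mean bead signal of each probe in BeadStudio and deposited these intensities as they were, without subtraction of background or normalization. They also deposited a table of log2 values, background-subtracted with MBCB and quantile-normalized, which served as an alternative.

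Background was corrected by normexp with an offset of 50, quantile normalization was run on the 134 arrays together, and log2 values of technical replicates were averaged. A probe was tested if its mean over 116 samples exceeded 6.2232, the median of the 48701 probes, which left 24350. limma 3.58.1 in R 4.3.3 (with the data.table package, version 1.17.8) was fitted to the 9 within-run differences (8 residual and 4.69 prior degrees of freedom) with Benjamini-Hochberg adjustment. The radiation labels, the 4 mock times and irradiated against mock cells were tested with limma in the same way. Figures were drawn in Python 3.11.15 (numpy 2.4.6, pandas 2.3.3, matplotlib 3.10.9). The fits were tested on simulated data. For arrays, the number of runs limits the precision.

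Samples were grouped by the labels' dose, time, radiation and biological replicate, and the rule of the comparison pairs them within runs. Deviations of the 24 h sample and the 12 h sample of a run from their group means correlated with 0.33 to 0.79 (median 0.42), and in 7 of 9 runs the 24 h sample correlated best with its own 12 h sample.

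Gene symbols come from the platform's annotation, updated through gene identifiers for 24089 of the 24303 annotated probes, with 1 symbol each, and 111 kept the older name. A gene of a list is represented by 1 probe. Named genes are the 15 with the smallest p in each direction among those moving the same way in at least 8 runs, up to 6 called genes with the smallest p in each of 29 lists, and fixed p53 and clock genes, 188 in all. Other list members in the text were named after their values were seen. The comparison, the lists and the motifs were chosen with earlier results of these data known. Of the 50 further tested probes of named genes, 11 had the opposite sign and 0 of these were called. BTG2 and TP63 were not analysed here. Promoter windows are RefSeq sequences of GRCh38.p14.

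Alternatives changed the background correction, scaling, filter, variance prior, pairing, campaigns, chips, technical replicates and threshold, and left out each run in turn. Cyclic loess scaling and fits without the runs that stood apart were chosen after seeing the data.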

Additional observations from a re-analysis of the deposited data

Results flagged for a closer look

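Sets of 9 values, 1 for each run, were examined: the differences of named genes, the list medians, and the median raw signals at 24 h and at 12 h. Of 220 sets, 11 (5%) held a run far from the other 8 by Dixon's gap criterion at 95%. Chance gives about 1 in 20. Run x-ray_09C accounted for 6 of them. There the median of the G2/M list was -1.89 (-0.68 to 0.48 in the other runs), KIF11 had -2.30 (-1.11 to 0.02) and MAD2L1, of the spindle checkpoint, -2.07 (-0.90 to -0.02). In the same run CRY1 had -1.12 (-0.41 to 0.31), KRT7 0.31 (-0.78 to -0.37) and the cholesterol and fatty acid list a median of -0.58 (-0.29 to -0.04).

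In Si_09A, CCDC138 had -0.91 (-0.66 to -0.44 in the other runs) and the aryl hydrocarbon receptor list a median of 0.83 (0.00 to 0.40). In Si_09B, the cholesterol transporter of lysosomes NPC1 had 1.06 (0.18 to 0.43) and the extracellular matrix list a median of 0.18 (-0.01 to 0.08). In Fe_09C, the histone gene H2AC6 had 1.85 (0.05 to 0.95).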

How the results depend on the processing

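The counts of 1748 probes higher and 1975 lower at 24 h depended on the pairing, the scaling and the threshold. Without the replicate block, 305 were higher and 490 lower. Median scaling gave 0 higher and 6 lower, and without the 3 runs whose raw medians differed most (Si_09B, Si_09C and x-ray_09C) it gave 0 and 0. Under median scaling the median SD between runs of the called probes was 0.591, against 0.234 with quantile normalization. All 3723 called probes kept their direction, but they had been chosen under quantile normalization in the same 9 pairs, so that this is no separate support. The 5 runs with both times on 1 chip gave 883 higher and 1218 lower, the 4 runs with the times on different chips 98 and 113, and an adjusted p under 0.01 gave 755 and 1035. Leaving out 1 run at a time gave 1207 to 1830 higher and 1457 to 2070 lower. The tests between labels and between irradiated and mock cells called 0 probes in each fit in which they were run. They were not run without the replicate block, on the chip subsets or with median scaling without the 3 runs. The other alternatives stayed within 1.5 times: the authors' values 1408 and 1604, no filter 1540 and 1814, all 36 mock samples 1814 and 2052, means of the 5 campaigns 1352 and 1636 and cyclic loess 1891 and 1827. Of 182 called probes of named genes, 158 were called without each of the 9 runs, 24 were lost without at least 1 run, and 0 turned direction. Of the uncalled clock genes, NPAS2 turned to -0.054 (adjusted p = 0.631) with both times on 1 chip and BMAL1 to 0.025 (adjusted p = 0.976) with the times on different chips; the cause was not tested. A filter on detection p was not run, because the values used hold none. With the means of the 5 campaigns the respiratory chain list had 1 gene higher, the ID and BMP list 1 higher and 1 lower, the EGFR and ERK list 2 lower and the p53 list 0 lower, each over 1.5 times from its count with 9 runs.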
